A study of Mus musculus with 12 samples.

Results

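Interferon response genes are the receptors, transcription factors and induced genes through which cells answer interferons. The set described here holds 41 named mouse genes, with the IFITM membrane proteins left out. Each gene was represented by the probe set, a group of short DNA probes for one transcript, that carried exactly 1 gene symbol and had the highest mean log2 signal over all 12 arrays. Of the 41 genes, 39 had such a probe set, out of 18193 genes on the array. Of those, 36 were bright enough to be tested, among 12083 tested genes. Isg15 and Ifi44 had no probe set of their own, and Irf8, Mx2 and Oasl1 were too dim.

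The cells were HSCs (haematopoietic stem cells), which sit in bone marrow and give rise to every blood lineage, purified by flow cytometry from mice. Wild-type mice and mice of the genotype NrasG12D/+, which carry 1 activating allele of the small GTPase Nras, each gave GFP- cells, which the labels call cycling, and GFPhigh cells, which they call quiescent. There were thus 4 groups, named by genotype (wild-type or Nras) and population (GFP- or GFPhigh), with 3 biological replicates each. All mice had received doxycycline in their water for 6 weeks and were sampled 12 weeks after its withdrawal. The transgene behind GFP, the way the Nras allele was made active, any use of an interferon inducer, pooling of mice and their ages are not given in the sources used here.

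Type I interferons bind the receptor pair Ifnar1 and Ifnar2, and interferon-gamma binds Ifngr1 and Ifngr2. Both receptors act through JAK kinases and STAT proteins. Stat2 and Irf9 are parts of the factor that binds the interferon-stimulated response element, and the interferon-gamma receptor acts through the gamma-activated site. The induced genes block viruses and intracellular microbes and feed peptides to class I MHC. In blood formation, interferons are known to drive resting HSCs into the cell cycle when given acutely.

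The response element shows as a repeat of GAAA in promoter DNA. Promoters of 4 genes whose signals are described below are printed to show it, each running from 250 bases before to 50 bases after the annotated start, 5′ to 3′ on the gene's strand, from RefSeq on GRCm38.p6. Of the genes chosen for a description sample by sample, these have a core in this window. Capitals mark the core GAAANNGAAA, or TTTCNNTTTC where it lies on the other strand. The positions are chr19:34583279-34583578 (plus strand) for Ifit3, chr3:142559794-142560093 (plus) for Gbp3, chr2:122147437-122147736 (plus) for B2m and chr2:62646206-62646505 (minus) for Ifih1.
Ifit3: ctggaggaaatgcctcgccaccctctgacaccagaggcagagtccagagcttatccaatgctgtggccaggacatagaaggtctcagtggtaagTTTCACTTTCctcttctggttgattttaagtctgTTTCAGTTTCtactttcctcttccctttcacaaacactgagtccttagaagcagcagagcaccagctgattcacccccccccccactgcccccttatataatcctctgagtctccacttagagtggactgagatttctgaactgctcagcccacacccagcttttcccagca
Gbp3: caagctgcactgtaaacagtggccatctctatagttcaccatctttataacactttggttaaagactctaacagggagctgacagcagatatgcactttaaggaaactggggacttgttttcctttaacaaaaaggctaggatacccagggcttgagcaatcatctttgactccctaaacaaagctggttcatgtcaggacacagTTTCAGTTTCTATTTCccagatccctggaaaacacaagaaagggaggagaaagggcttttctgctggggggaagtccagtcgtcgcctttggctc
B2m: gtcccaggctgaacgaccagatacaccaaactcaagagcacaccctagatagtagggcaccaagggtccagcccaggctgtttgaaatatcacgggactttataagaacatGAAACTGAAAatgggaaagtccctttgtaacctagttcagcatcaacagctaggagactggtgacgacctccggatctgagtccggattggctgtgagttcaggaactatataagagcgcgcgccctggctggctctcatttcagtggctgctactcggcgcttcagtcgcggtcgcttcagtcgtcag
Ifih1: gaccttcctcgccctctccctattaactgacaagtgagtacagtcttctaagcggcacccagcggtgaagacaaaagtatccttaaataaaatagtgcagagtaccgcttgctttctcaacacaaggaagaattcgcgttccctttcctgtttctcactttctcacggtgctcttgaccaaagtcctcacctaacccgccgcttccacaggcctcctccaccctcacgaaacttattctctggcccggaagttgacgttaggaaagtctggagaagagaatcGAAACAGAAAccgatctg
The first bases of the 2 cores of Ifit3 lie at -156 and -122 from the start, and those of Gbp3 lie at -45 and -39 and overlap each other. A second Gbp3 promoter, at chr3:142560106-142560405 (plus), held no core and is not printed. B2m has its core at -139 and Ifih1 at 33, past the start. In all, 32 of the 41 genes had a promoter in the RefSeq table, with 39 promoters among them. The core was found in 13 of these promoters (33.3%), against 3.44% of 32851 mouse promoters of the same length. The gamma-activated site TTCNNNGAA, which reads alike on both strands, was found in 10 (25.6%), against 8.30%. Both were in 3 of the promoters, and in 1 they overlapped.

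The cores were in 4 of 6 promoters of interferon-gamma GTPases and 5 of 14 of antiviral effectors, and in 0 of 4 of the receptors. Isg15, which encodes a ubiquitin-like modifier, had 3 cores in its promoter but no signal of its own on the array. The promoters of Isg20, Trim25, Irf1 and Ifnar2 held no core in this window. A match of letters is not evidence of binding.

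Expression was read as MAS5 signal, an intensity in arbitrary units that was scaled to the same trimmed mean on every array. Array medians of the signal ran from 44 to 129.6. The array weight from limma, which falls as an array departs from the fit, was 0.308 to 0.522 on 4 arrays, called uneven below: wild-type GFPhigh replicate 2, Nras GFP- replicate 1 and Nras GFPhigh replicates 1 and 2. It was 0.903 to 2.46 on the other 8. Leaving the uneven arrays out keeps 1 array in Nras GFPhigh (replicate 3) and 2 each in Nras GFP- and wild-type GFPhigh, so values given without them are descriptions that rest on few arrays. Of 10 HSC markers, 8 had a probe set, among them Kit, Procr and Mecom, and all 8 were above the array median on all 12 arrays. Xist, which silences an X chromosome in female cells, and the Y-linked Eif2s3y separated replicate 3 of each group from replicates 1 and 2. On replicate 3 Xist read 91.8 to 205.1 and Eif2s3y 3877 to 4545, the pattern of male cells. On replicates 1 and 2 Xist read 5773 to 11481 and Eif2s3y 2.3 to 674.7, the pattern of female cells. In such bulk samples, fewer expressing cells and less RNA per cell cannot be told apart.

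Most tested members were above the array median in HSCs of every group: 26 of the 36 were so on all 12 arrays. The tested members had been kept for being above it on at least 3 arrays, and no share over all genes is given. Their mean log2 signal had a median of 10.02, against 8.68 over all tested genes. B2m, the light chain of class I MHC, read 8676 to 19624 over the arrays. Trim25, a ubiquitin ligase that supports RNA sensing, read 4015 to 8709, and Iigp1, a GTPase that attacks the vacuoles of intracellular parasites, 2322 to 7647. Low signals came from Mx1, a GTPase that traps viral particles (15.4 to 243.9), and Irf7, which amplifies interferon production (14.8 to 296.8). The dim Irf8, which directs myeloid and dendritic cell fate, reached 116, while Mx2 reached 158.8 and Oasl1 116.7. The brightness of a probe set depends on its probes, so no order of expression between genes is drawn from it.

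**Figure D1:**
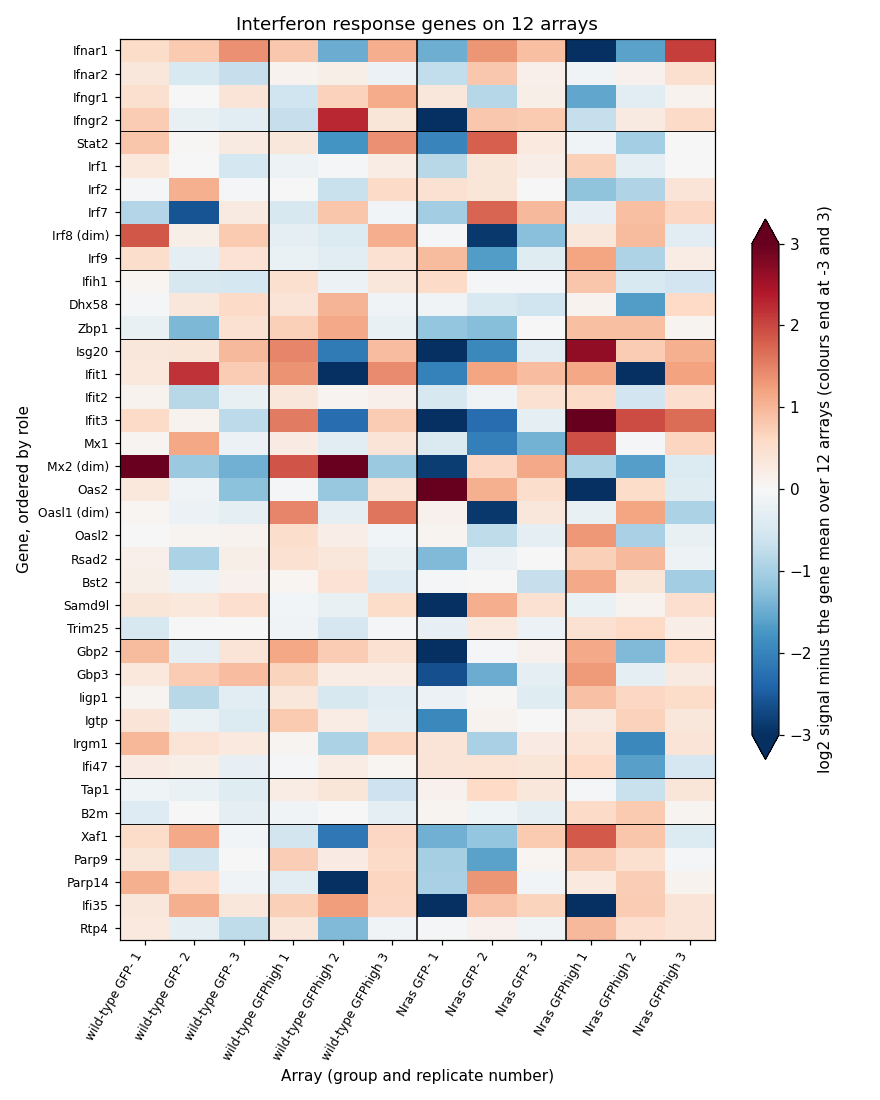
Log2 MAS5 signal of 39 interferon response genes (rows, ordered by role, with 3 dim genes marked) on 12 arrays (columns, by group and replicate), as the difference from each gene's mean over the arrays, red above and blue below. Colours end at -3 and 3; Nras GFP- replicate 1 holds much of the deep blue, and no group is of 1 colour throughout.

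No member passed the test in any comparison. Signals were compared with one limma model over all 12 arrays, with p values adjusted by Benjamini-Hochberg over the 12083 genes and a threshold of 0.05. The 7 comparisons were GFPhigh against GFP- in each genotype and on average, Nras against wild-type in each population and on average, and the interaction, that is, the difference between the 2 GFPhigh against GFP- differences. They share arrays, so their values for a gene are not independent. Over all genes, 0% passed in 6 of the comparisons, and 1 gene (0.00828%) passed in the average of Nras against wild-type: Gem, a small GTPase that is not a member. Differences are given in log2 units with the standard error (SE) from limma.

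Cells that kept GFP had higher signal in 26 of 36 members on average over genotypes (72.2%, against 51.0% of all genes), and none of these differences passed the test. The median difference, GFPhigh minus GFP-, was 0.20, against 0.018 over all genes, and with no filter on dim genes (39 members, 18193 genes) 0.21 against 0.13. An unadjusted p under 0.05 was reached by 6 members, all higher, where the background over all genes was 8.87% in either direction and 4.36% higher. These 6 were Ifit3, B2m, Iigp1, Parp9, Zbp1 and Rsad2, with differences from 0.34 to 2.26, and their smallest adjusted p was 0.494. No member separated all 6 GFPhigh arrays from all 6 GFP- arrays, against 0.571% of all genes.

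In wild-type mice the member median was near 0 between the populations. The difference at the median was 0.069, against -0.031 over all genes, with 21 of 36 members higher. At an unadjusted p under 0.05 there were 0 members, against 2.20% of all genes, and the smallest adjusted p was 0.9997. The 3 samples of one population lay above the other 3 in 0 members, against 11.1% of all genes. Irf7 had the highest difference, 1.16, and Ifit1, which binds foreign RNA caps, the lowest, -1.76.

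In Nras mice the range was wider. The median difference, GFPhigh minus GFP-, was 0.38, against 0.082 over all genes, with 24 of 36 members higher and differences from -2.72 to 4.47. With no filter on dim genes the medians lay closer, at 0.39 for the members and 0.33 for all genes. An unadjusted p under 0.05 was reached by 9 members, 8 higher and 1 lower, against a background of 12.2%, and 6.20% in the higher direction; the smallest adjusted p was 0.201. In 8 members all 3 GFPhigh samples lay above all 3 GFP- samples, against 6.70% of all genes in that direction and 12.9% in either. They were Zbp1, Isg20, Ifit3, Mx1, Gbp3, Iigp1, Igtp and Rtp4. The member median rested in part on 1 array: without Nras GFP- replicate 1 it was 0.037. Between samples of the same replicate number it was 1.13 for number 1, -0.30 for number 2 and 0.11 for number 3, so the replicates did not share 1 direction.

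The interaction had a median of 0.46 over the members, against 0.11 over all genes, with 23 of 36 members above 0. With no filter on dim genes these medians were 0.42 and 0.32. Of these, 3 had an unadjusted p under 0.05 (Ifit3, Gbp3 and Isg20), against 4.68% of all genes and 2.43% in that direction, and the smallest adjusted p was 0.956. Without the 4 uneven arrays, with Nras GFPhigh read from 1 array, the member median was 0.020. The difference between the genotypes was thus not called for any member.

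**Figure D2:**
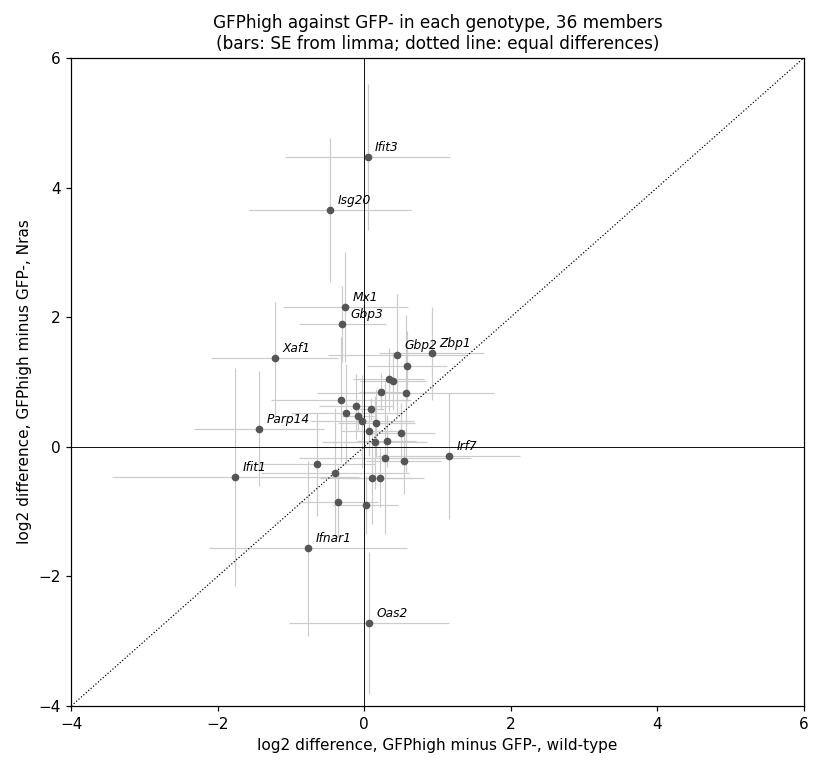
Log2 difference GFPhigh minus GFP- in wild-type (horizontal axis) against the same in Nras (vertical axis) for 36 members; bars are SE from limma, n = 3 arrays a group, and the dotted line marks equal differences. Ifit3 and Isg20 lie far above the line at 4.47 and 3.65 in Nras, Oas2 lies lowest at -2.72, and none passed the test.

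Between genotypes, the member median lay close to that of all genes. On average over both populations the median difference, Nras minus wild-type, was -0.18, against -0.15 over all genes, and 15 of 36 members were higher. With no filter on dim genes the medians were -0.21 and -0.036. There were 4 members with an unadjusted p under 0.05, against 7.78% of all genes: B2m, Iigp1 and Trim25 were higher and Gbp3 was lower, with a smallest adjusted p of 0.579. No member separated all 6 Nras arrays from all 6 wild-type arrays, against 0.372% of all genes. The all-gene median depends on scaling and was 0.16 with each array centred on its median, where the member median was 0.14.

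In GFP- cells 25 of 36 members had lower signal in Nras than in wild-type, with a median of -0.40 against -0.17 over all genes. An unadjusted p under 0.05 was reached by 2 members, both lower (Gbp3 and Isg20), against 4.39% of all genes and 3.42% in that direction, and the smallest adjusted p was 0.983. Groups did not overlap in 7 members, against 10.8% of all genes: Oas2, Ifi47 and Tap1 were higher and Dhx58, Isg20, Mx1 and Gbp3 lower in Nras. Without Nras GFP- replicate 1 the member median was 0.12.

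In GFPhigh cells 20 of 36 members were higher in Nras, with a median of 0.069 against -0.090 over all genes. With no filter on dim genes the order turned, with 0.056 for the members and 0.14 for all genes. An unadjusted p under 0.05 was reached by 3 members, all higher (B2m, Trim25 and Iigp1), against 8.29% of all genes and 3.17% in that direction, and the smallest adjusted p was 0.409. Groups did not overlap in 5 members, all higher in Nras (Ifit3, Trim25, Iigp1, B2m and Rtp4), against 5.12% of all genes in that direction and 12.5% in either. With each array centred on its median the member median was 0.37 and the all-gene median 0.21.

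**Figure D3:**
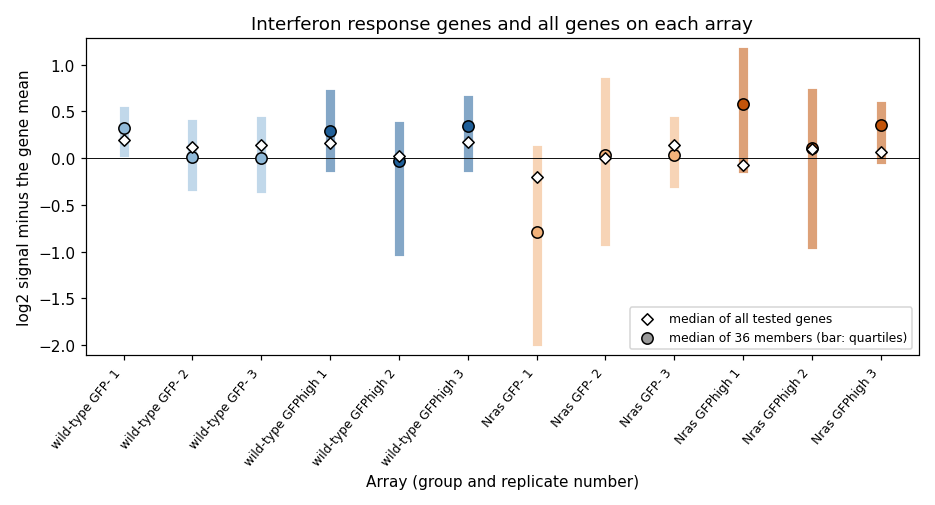
Median over 36 members of the log2 signal minus the gene mean (filled circles, with bars from the lower to the upper quartile) and the same median over all 12083 genes (open diamonds), for each of 12 arrays. Nras GFP- replicate 1 is lowest at -0.79, and the Nras GFPhigh arrays lie at 0.58, 0.11 and 0.35.

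The median deviation of the members from their gene means was 0.11 ± 0.18 (SD, n = 3) in wild-type GFP- cells and 0.20 ± 0.20 in GFPhigh cells of that genotype, against -0.24 ± 0.47 and 0.35 ± 0.23 in the Nras populations. The low mean of Nras GFP- came from replicate 1 at -0.79, since replicates 2 and 3 were at 0.034 and 0.029. The all-gene value of that array was also below 0, at -0.20.

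Among the receptors, Ifnar2, a signalling chain for type I interferons, had the brightest probe set. Its signals were 3546, 2040 and 1740 in wild-type GFP- cells, 3033, 3156 and 2483 in wild-type GFPhigh, 1684, 4909 and 3105 in Nras GFP-, and 2603, 3056 and 3892 in Nras GFPhigh. All 4 groups overlapped on this probe set. A second Ifnar2 probe set, also above the filter, was lower in GFPhigh cells of both genotypes, by values of -0.95 in wild-type and -0.999 in Nras, against 0.31 and 0.09 for the brightest. On it the Nras GFP- samples (2166, 2146 and 1852) lay above the Nras GFPhigh samples (553, 1076 and 1811), and the one other probe set gave -0.15 and -0.75. Ifnar1, its partner, ranged from 23.7 in Nras GFPhigh replicate 1 to 2094 in replicate 3 of the same group, and its difference in Nras was -1.57 ± 1.35, against -0.38 on its other probe set. Ifngr1, which binds interferon-gamma, lay between 173.9 and 1101, and Ifngr2, which recruits the kinase, between 11.7 and 853.2. A second Ifngr2 probe set, also above the filter, gave -0.53 in wild-type and 1.98 in Nras, against 0.57 and 0.82 for the brightest. On it the Nras GFPhigh samples (720.9, 233.3 and 208.1) lay above the Nras GFP- samples (80.9, 58.2 and 120.2). On the brightest probe sets, the only ones tested, no receptor reached an unadjusted p under 0.05 in any comparison.

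The transcription factors also gave 0 of 5 tested members with an unadjusted p under 0.05 in every comparison. Irf1, an early activator induced by interferon-gamma, had the brightest probe set among them. It read 3840, 3104 and 2140 in wild-type GFP- cells, 2753, 2971 and 3592 in wild-type GFPhigh, 1708, 3923 and 3490 in Nras GFP-, and 5026, 2542 and 3041 in Nras GFPhigh. Its group means of log2 signal differed by at most 0.24, with all groups overlapping. Irf2, which competes with Irf1 and restrains interferon signalling, lay between 641.5 and 3089 and was lower in GFPhigh cells by values of -0.36 in wild-type and -0.85 in Nras. Stat2 and Irf9 had differences of -0.41 and 0.14 on average between the populations. A second Stat2 probe set gave -0.09 in wild-type and 1.16 in Nras, so its direction in Nras depends on the probe set.

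Of the sensors, Ifih1, a helicase that detects long viral RNA and whose promoter is printed above, had the brightest probe set. It read 1304, 909.9 and 875.3 in wild-type GFP- cells, and 1767, 1122 and 1600 in GFPhigh cells of that genotype. In Nras it read 1864, 1218 and 1236 in GFP- and 2229, 925.2 and 850.5 in GFPhigh. The groups overlapped in both genotypes. Zbp1, a sensor of Z-form nucleic acid that can start necroptosis, was higher in GFPhigh cells on average, by 1.18 ± 0.509 (adjusted p = 0.55 in limma). In Nras its GFPhigh samples (806.4, 815.8 and 458.3) lay above its GFP- samples (194.3, 180 and 431.5), while in wild-type they overlapped. A second Zbp1 probe set gave differences of 2.71 in wild-type and 1.78 in Nras, but on it the groups overlapped in both genotypes. There the Nras GFP- samples read 6.3, 902 and 309.5 and the Nras GFPhigh samples 1791, 112.5 and 354. In wild-type they read 182.6, 87.3 and 3.9 in GFP- and 521.6, 282.8 and 118.4 in GFPhigh. Each GFP- group thus held 1 very low reading. Dhx58, a helper of RNA sensing, had genotype differences of -0.68 ± 0.715 in GFP- and -0.76 ± 0.715 in GFPhigh cells. Its probe sets disagreed: the other 2, of lower signal and also above the filter, gave 0.40 and -0.57 in GFP- and 1.96 and 1.55 in GFPhigh cells, so no direction is drawn for this gene.

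The antiviral effectors held the widest differences. Ifit3, a member of the family that sequesters foreign RNA and whose promoter carries 2 cores, read 365.7, 264.7 and 141.9 in wild-type GFP- cells, and 724.2, 50.5 and 412.5 in GFPhigh cells of that genotype. In Nras it read 13.9, 50.1 and 202.1 in GFP- and 2083, 951 and 780.5 in GFPhigh. The 3 Nras GFPhigh samples were the 3 brightest of all 12, and the wild-type populations overlapped. The Nras difference was 4.47 ± 1.13 (adjusted p = 0.201 in limma), against 0.05 in wild-type, and the interaction was 4.43 ± 1.59 (adjusted p = 0.956). With 100 units added before taking logs the Nras difference was 2.87, and without the uneven arrays, with 1 Nras GFPhigh array left, the interaction was 1.77. Its neighbours in function, Ifit1 and Ifit2, had Nras differences of -0.47 and 0.21, and the groups overlapped.

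Isg20, an exonuclease that degrades viral RNA, went with Ifit3 across the arrays. It read 339.8, 341 and 521.3 in wild-type GFP- cells, 733.2, 61.7 and 503.6 in wild-type GFPhigh, 14.8, 69.4 and 212 in Nras GFP-, and 1681, 454.7 and 561.1 in Nras GFPhigh. All 3 Nras GFP- samples lay below all wild-type GFP- samples and below all Nras GFPhigh samples. The Nras difference between populations was 3.65 ± 1.11 (adjusted p = 0.265 in limma), and that between genotypes in GFP- cells was -2.71 ± 1.11 (adjusted p = 0.983). The interaction was 4.12. Without the uneven arrays, with 1 Nras GFPhigh array left, the first was 2.21 and the interaction 1.58.

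**Figure D4:**
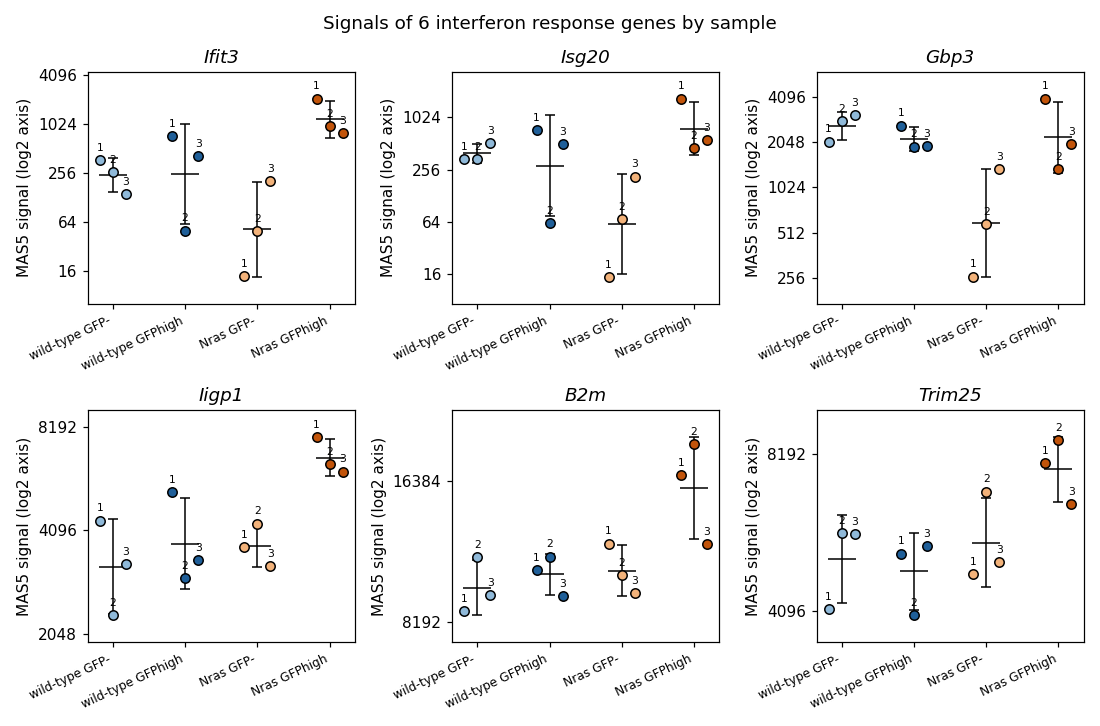
MAS5 signal (log2 axis) of 6 interferon response genes in each sample, by group; numbers are replicates, horizontal lines are means and bars SD of the log2 signals (n = 3). The Nras GFPhigh samples lie above the Nras GFP- samples in Ifit3, Isg20, Gbp3 and Iigp1, and Nras GFP- is low in Gbp3.

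Trim25 had the brightest probe set of the effectors. It read 4118, 5766 and 5752 in wild-type GFP- cells, 5275, 4015 and 5462 in wild-type GFPhigh, 4810, 6943 and 5080 in Nras GFP-, and 7875, 8709 and 6560 in Nras GFPhigh. The Nras GFPhigh samples lay above every wild-type sample. The genotype difference in GFPhigh cells was 0.65 ± 0.217 (adjusted p = 0.498 in limma). Its probe sets disagreed: the others gave 0.67 and -1.24, and the mean over all 3 gave 0.03. Without the uneven arrays it was 0.29, which sets 1 Nras array against 2 wild-type arrays.

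The other effectors split. Mx1 was higher in all 3 Nras GFPhigh samples (243.9, 62.3 and 98.9) than in the Nras GFP- samples (46.8, 15.4 and 23.8), with a difference of 2.15 ± 0.849 (adjusted p = 0.356 in limma). Rsad2, the radical-forming enzyme viperin, was higher in GFPhigh cells on average by 0.71 ± 0.316 (adjusted p = 0.551 in limma), and 1 of its 2 other probe sets was lower in Nras GFPhigh cells, at -0.65. Oas2, which makes the second messenger that turns on RNase L, ran the other way. Its Nras GFP- signals were 1423, 281.8 and 195 and its Nras GFPhigh signals 13.3, 196.9 and 104.7, a difference of -2.72 ± 1.09 (adjusted p = 0.366 in limma), with 1 GFPhigh sample just above the lowest GFP- sample. Oasl2, Bst2 and Samd9l had Nras differences of 0.37, 0.39 and 0.73, each smaller than its SE or near it, with overlapping groups.

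Among the interferon-gamma GTPases, Gbp3, a guanylate-binding protein of host defence inside cells, was low in Nras GFP- cells. It read 2060, 2806 and 3096 in wild-type GFP- cells, 2629, 1908 and 1923 in wild-type GFPhigh, 262.3, 585.3 and 1359 in Nras GFP-, and 3972, 1361 and 1982 in Nras GFPhigh. The Nras GFP- samples lay below every other sample, by a narrow margin for replicate 3 (1359) against Nras GFPhigh replicate 2 (1361). The genotype difference in GFP- cells was -2.14 ± 0.588 (adjusted p = 0.983 in limma) and the population difference in Nras was 1.89 ± 0.588 (adjusted p = 0.265). Without the uneven arrays these were -1.55, from 2 Nras arrays, and 1.15, from 2 against 1.

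Iigp1, with the brightest probe set of the GTPases, was not low in Nras GFP- cells. It read 4370, 2322 and 3262 in wild-type GFP- cells, 5284, 2974 and 3349 in wild-type GFPhigh, 3651, 4284 and 3226 in Nras GFP-, and 7647, 6366 and 6065 in Nras GFPhigh. The 3 Nras GFPhigh samples were the highest of all 12. The difference was 0.85 ± 0.288 between the Nras populations and 0.83 between the genotypes in GFPhigh cells. A second probe set, of lower signal, gave 0.59 and 0.44. On it the Nras GFPhigh samples (2211, 1743 and 1923) still lay above the Nras GFP- samples (1131, 1419 and 1352). They overlapped the wild-type GFPhigh samples (2145, 921.7 and 1505).

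The other GTPases did not share 1 direction. In Nras, Igtp, which guards against vacuolar parasites, differed by 1.04 ± 0.488 between the populations with no overlap, and Gbp2 by 1.41 with overlap. Irgm1, a regulator of the other GTPases that is needed for HSC maintenance, had -0.27, and Ifi47, a further GTPase of this family, -0.90. Ifi47 read 3464, 3539 and 3454 in Nras GFP-, above all wild-type GFP- samples, and 4013, 864.1 and 1868 in Nras GFPhigh.

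In antigen presentation, B2m had the smallest spread within groups of all members, an SD of 0.235, against a median of 0.71 over the members and 1.04 over all genes. Its signals were 8676, 11286 and 9366 in wild-type GFP- cells, 10575, 11314 and 9311 in wild-type GFPhigh, 12063, 10345 and 9453 in Nras GFP-, and 16878, 19624 and 12028 in Nras GFPhigh. Replicates 1 and 2 of Nras GFPhigh stood above all others, and replicate 3 was just below Nras GFP- replicate 1. The granulocyte markers described below were also highest on these 2 arrays. The genotype difference in GFPhigh cells was 0.61 ± 0.17 (adjusted p = 0.409 in limma) and the population difference in Nras was 0.59 ± 0.17 (adjusted p = 0.252). A second probe set gave 0.43 and 0.62.

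The B2m differences depended on scaling. With quantile normalization, which gives every array the same distribution, they were 0.02 and 0.03, and without the uneven arrays, with 1 Nras GFPhigh array left, 0.28 for both. Without Nras GFPhigh replicate 3 the population difference in Nras was 0.78 and passed (adjusted p = 0.031), as did 161 of the 12083 genes (1.33%) in that comparison. No other member passed under any alternative, and over the alternatives this p ran from 0.031 to 0.891. Tap1, which carries peptides into the endoplasmic reticulum, had differences of -0.48 in Nras and 0.22 in wild-type, with overlapping groups. It was higher in all Nras GFP- samples (1514, 2078 and 1764) than in the wild-type GFP- samples (1274, 1203 and 1079).

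The remaining induced genes included Rtp4, a chaperone of receptor transport, with the brightest probe set of them. It read 1840, 1216 and 890.2 in wild-type GFP- cells, 1883, 598.4 and 1402 in wild-type GFPhigh, 1459, 1633 and 1403 in Nras GFP-, and 2948, 2117 and 1964 in Nras GFPhigh. Its Nras GFPhigh samples were the 3 highest of all 12, with a genotype difference in GFPhigh cells of 0.99. This difference had an unadjusted p of 0.0702 in limma. On a second probe set, of lower signal and also above the filter, it was 2.92, but the groups overlapped. There the Nras GFPhigh samples read 93.9, 1309 and 497.8, against up to 544.5 in wild-type GFPhigh and 511.8 in Nras GFP-. The genotype difference in GFP- cells was 0.25 on the brightest probe set and -1.01 on the second.

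Parp9, a protein of the ADP-ribosyltransferase family, was the member among them with an unadjusted p under 0.05, on average over genotypes and in Nras. It read 1444, 765.6 and 1125 in wild-type GFP- cells, 1884, 1343 and 1668 in wild-type GFPhigh, 566, 367.8 and 1162 in Nras GFP-, and 1886, 1559 and 1094 in Nras GFPhigh. Groups overlapped in both genotypes, and GFPhigh minus GFP- was 0.92 ± 0.384 on average. Xaf1, which promotes cell death, had -1.22 in wild-type and 1.36 in Nras, with overlap. Parp14, the partner of Parp9, had -1.44 and 0.28, and 0.86 and 0.95 on its other probe set. Ifi35 had differences within its wide spread, as its signals were 119.9 and 108.3 on Nras GFP- and Nras GFPhigh replicate 1 against 1622 to 3079 on the other 10 arrays.

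The members did not vary as a single block. Over the 12 arrays the mean Pearson r of all 630 pairs of members was 0.095, against 0.016 for all genes, and 374 pairs were above 0. Over the 8 even arrays it was 0.018, against 0.0048. The points share arrays and scaling, so these are descriptions. The pairs named here were taken from the highest and lowest r of the 630. Isg20 and Ifit3 had r = 0.94 over 12 arrays and 0.84 over the even 8. Isg20 and Gbp3 had 0.86 and 0.90, Zbp1 and Rsad2 0.85 and 0.81, and Iigp1 and Rtp4 0.81 and 0.77. Others fell on the even arrays: Gbp2 and Gbp3 had 0.81 and 0.34, and Rsad2 and Igtp 0.80 and 0.52. Oas2 and Gbp3 ran opposite, with -0.87 and -0.80.

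Other genes of the pathway were taken from 5 lists, and 0 of their genes passed the test in any comparison. Of the other JAK-STAT genes, 8 of 10 were tested, and on average over genotypes 5 were higher and 3 lower in GFPhigh cells. Socs3, a feedback inhibitor of JAK kinases, had 3.42 ± 1.12 (adjusted p = 0.454 in limma); its signal exceeded 211.2 on 1 array only, Nras GFPhigh replicate 2 (1576). Of the other type I induced genes, 28 of 33 were tested, with 14 higher and 14 lower and a median of 0.037.

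Slfn2, a Schlafen protein that keeps immune cells quiescent, was the listed gene of smallest p. Its signals were 190.6, 145.1 and 277.3 in wild-type GFP- cells, 994.2, 984.7 and 793.5 in wild-type GFPhigh, 110.6, 51.2 and 102.1 in Nras GFP-, and 851.4, 742.5 and 236.9 in Nras GFPhigh. The populations did not overlap in either genotype. The average difference was 2.45 ± 0.505 (adjusted p = 0.217 in limma). In the average of Nras against wild-type, the chemokine gene Cxcl10 had -2.19 and Ly6e, a membrane protein of the Ly6 family, -0.54.

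Of the other interferon-gamma GTPases and antigen presentation genes, 13 of 20 were tested. On average over genotypes 11 were higher in GFPhigh cells (median 0.25), against 51.0% of all genes (median 0.018). In GFPhigh cells 13 of 13 were higher in Nras (median 0.35), against 46.1% of all genes (median -0.090). That all-gene median depends on scaling and was 0.21 with each array centred on its median. Such centring moves every gene by the same amount, so 0.21 is not to be set against the uncentred 0.35. No value of this list under quantile normalization is given here. H2-K1, a class I MHC heavy chain that pairs with B2m, read 8383, 10839 and 9462 in wild-type GFP- cells, 10987, 12440 and 10298 in wild-type GFPhigh, 14399, 11093 and 9915 in Nras GFP-, and 19582, 20633 and 12815 in Nras GFPhigh. As with B2m, replicates 1 and 2 of Nras GFPhigh stood highest. Its genotype difference was 0.46 ± 0.129 on average and that of H2-D1, a second heavy chain, 0.37 ± 0.122 (adjusted p = 0.579 for both in limma). Probes of these near-identical genes can read each other's transcripts. Irgm2, a regulatory GTPase, had 0.52 ± 0.152 between populations and 0.46 between genotypes, and Gbp6 1.40 ± 0.445 between populations.

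Of the genes that sense infection upstream of interferon, 11 of 16 were tested. On average 10 of these 11 were lower in Nras, against 7183 of 12083 genes. Their median was -0.15, the value also found over all genes. Tlr3, the endosomal receptor of double-stranded RNA, had -2.02 ± 0.79 (adjusted p = 0.608 in limma). Of 7 interferon genes on the array only Ifna1 and Ifna5 were bright enough to be tested. Ifna1 read 98.8 to 483.9 over the arrays and Ifna5 17.1 to 381.7. Ifnb1 stayed at or below 24.6 on every array and Ifng at or below 27.4, both under the array medians. Ifna5 had 1.45 between populations (adjusted p = 0.578 in limma).

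Markers of other blood and stromal cells reached higher sums in the Nras GFPhigh group. Of 10 granulocyte markers 9 were on the array, and their summed signal was 6053 to 57132 in Nras GFPhigh, against 4744 to 5157 in Nras GFP-, 2063 to 12892 in wild-type GFP- cells, and 899.6 to 11783 in GFPhigh cells of that genotype. By array, their median deviation from the gene means was 3.22, 3.49 and 0.11 in Nras GFPhigh replicates 1, 2 and 3. No marker was listed at 0. S100a8 and S100a9 were above the array median on 12 arrays, Csf3r on 11, and Mpo and Ngp on 9. Camp was above it on 8, Ltf on 6, and Lcn2 and Elane, which defines early granulocytes, on 4. The part of granulocyte RNA in the values of B2m, Ifit3 and the other members was not tested.

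Of 8 endothelial and stromal markers on the array, the summed signal was 3722 to 6993 in Nras GFPhigh, against 303.9 to 5658 in the other 3 groups. For 5 erythroid markers it was 1168 to 7655, against 161.9 to 3262, for 7 B cell markers 1015 to 3421, against 226.6 to 1093, and for 8 T and NK cell markers 315.9 to 1088, against 131.5 to 565.9. Of 8 monocyte and macrophage markers 7 were above the array median on fewer than 3 arrays, with Cd14 and C1qa on 0; their sum was 257.5 to 2070 in Nras GFPhigh and 122.8 to 622.1 in the other groups. The 10 dendritic cell markers, which include the members Bst2 and Irf8, summed to 7036 to 10863 and 5439 to 10799. Their part in the results was not tested.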

How the data were processed

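Total RNA of 12 samples was extracted with Trizol and hybridised as biotinylated cRNA to Affymetrix arrays, 1 array a sample, per the labels' protocols. The authors deposited intensity on a linear scale, produced by MAS5 per the submitters' processing notes; its version is not given in the sources used here. After 2% of probe sets were trimmed from each end, the 12 arrays had one common mean. The arrays give no counts, so their number limits the precision. The submitters' detection calls were not used here.

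Before log2, 3 signals listed at 0 were raised to a floor of 0.1, and no further normalization was made. Of 45101 probe sets, 64 controls, 932 with several symbols and 9160 with none were left out, which kept 34945. Symbols came from the platform's annotation. The brightest probe set of each of 18193 genes was kept, and genes above the array median on at least 3 arrays (12083) were tested. One limma model with 4 group means and an intensity trend gave 7 comparisons, with two-sided p values adjusted by Benjamini-Hochberg over all tested genes and a threshold of 0.05. Steps were tested on simulated data.

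The members and the pathway and marker lists were chosen with earlier results of these data known. Values of every sample are given for the member of highest signal in each role, and for up to 4 members of smallest p under 0.05 in each comparison. Of each pathway list, up to 3 genes of smallest p in the averaged comparisons are named. Other members are named to account for the whole set, and Ifnb1, Ifng, Gem and a few list genes were chosen after their values were seen. Promoters were matched by symbol to RefSeq sequences on GRCm38.p6, and those of Iigp1, Parp9, Rtp4 and 6 other members are not shown. Alternatives were median centring, quantile normalization, array weights, no filter, an average of all probe sets per gene, a pseudocount of 100, the omission of shared probe sets (those with _s_at, _x_at or _a_at names), the replicate number as a block, the omission of each array in turn, leaving out the 4 uneven arrays, and only replicates 1 and 2. The fits used limma 3.58.1 with statmod 1.5.0 in R 4.3.3. Promoter searches ran in Python 3.11.15 with pandas 2.3.3, and figures were drawn with matplotlib 3.10.9.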

Additional observations from a re-analysis of the deposited data

How the results depend on the processing

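The 20 differences of smallest p among the members, up to 4 in each comparison, were recomputed under the alternatives. None of the 20 changed sign, and none passed the test except that of B2m between the Nras populations without Nras GFPhigh replicate 3 (0.78, adjusted p = 0.031 in limma), where 161 of 12083 genes (1.33%) passed. Other members' differences were not recomputed one by one. The sign differed between probe sets of the same gene, in 1 comparison or more, for many members. Among them were Dhx58, Stat2, Ifnar1, Ifnar2, Ifngr2, Zbp1, Rsad2, Parp14, Ifi35 and Rtp4. The number of members that passed was otherwise 0 in all 7 comparisons and under every alternative, and without single replicates it ran from 0 to 1 in the Nras populations. With each array centred on its median, the member median was 0.14 for Nras against wild-type on average, -0.064 in GFP- and 0.37 in GFPhigh cells, and the all-gene medians moved likewise, from -0.15 to 0.16 on average, by the construction of the centring. Without the 4 uneven arrays, which leaves 1 array in Nras GFPhigh, assumed to vary like the other groups, the member median was 0.12 for Nras against wild-type in GFP- cells and 0.020 for the interaction. Without single replicates it ran from 0.037 to 0.63 for GFPhigh against GFP- in Nras, from -0.55 to 0.12 for Nras against wild-type in GFP- cells, and from 0.14 to 0.57 for the interaction. The value without Nras GFP- replicate 1 was 0.037, 0.12 and 0.14 in these 3. The other causes were not tested. With no filter on dim genes the member median exceeded the all-gene median by 0.063 for GFPhigh against GFP- in Nras and by 0.099 for the interaction, against 0.30 and 0.35 with the filter. With the replicate number as a block, 0 members passed in all 7 comparisons and the medians were those of the fit without it. Deviations of samples with the same number correlated at -0.044 to 0.15 (median 0.042), with 3 of 18 pairs over 0.1, against a median of -0.012 and a highest value of 0.073 for different numbers. The 3 pairs all join replicate 3 samples (0.15, 0.14 and 0.11), which Xist and Eif2s3y also set apart with the pattern of male cells. What else these samples share was not tested. Not every pair was over 0.1, so the numbers were not taken to pair all the samples. Without shared probe sets 25 members were tested, among them neither B2m, Isg20 nor Gbp3.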

Other observations

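The only probe set for Isg15, a ubiquitin-like modifier and one of the most used marks of an interferon response, is shared with the predicted gene Gm9706 and was left out of the set. It read 244.7, 1390 and 733.1 in wild-type GFP- cells, 528.2, 120.4 and 311.4 in wild-type GFPhigh, 167.2, 574.7 and 110.5 in Nras GFP-, and 618.5, 556.5 and 232.2 in Nras GFPhigh. The groups overlapped in both genotypes, with differences between populations of -1.22 in wild-type and 0.97 in Nras that were not tested. The 3 probe sets that name Ifi44l, a different gene from Ifi44, read at most 34.3.

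The dim member Irf8 had a second probe set of lower mean signal that passed the filter. It was above the array median only on Nras GFPhigh replicates 1 and 3 and wild-type GFPhigh replicate 1. It read 197, 42.2 and 122.8 in Nras GFPhigh, 6.2, 4.2 and 10 in Nras GFP-, 96.1, 3.6 and 4.4 in wild-type GFPhigh, and 6.1, 8.1 and 6.5 in GFP- cells of that genotype. All 3 Nras GFPhigh samples lay above the Nras GFP- samples. This probe set passed the filter only through GFPhigh arrays, so no difference is drawn from it. The probe set kept for Irf8 read 40.1, 61.6 and 25.4 in Nras GFPhigh and 31, 4.3 and 13.3 in Nras GFP-. Neither was among the tested genes.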
